A study of Drosophila melanogaster with 4 samples.

Results

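The 2964 clusters of H3K9ac enrichment on the right arm of chromosome 3 (3R) are described here, out of 12322 in the series-wide list of the study. They are the rows of that list that lie on 3R in release 5 of the Drosophila melanogaster genome, so position alone chose them. H3K9ac was profiled by ChIP-seq, the sequencing of DNA recovered with an antibody from fixed chromatin, in whole embryos of the wild-type strain Oregon-R, aged 14 to 16 h. The 4 samples are 2 H3K9ac ChIP samples and 2 input samples of chromatin, all of the same strain, genotype and stage, from flies kept in population cages. Each ChIP sample has its own list, with 2054 clusters on 3R out of 8495 in replicate 1 and 1652 out of 6772 in replicate 2, and the inputs contribute no values here. Embryos at this stage hold many cell types, and the lists cannot tell a mark carried by a few cells from a weak mark carried by all.

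H3K9ac is histone H3 acetylated at lysine 9. Acetylation removes the positive charge of the lysine and is bound by proteins with bromodomains, and the mark is found over promoters and the 5′ parts of transcribed genes. The euchromatic part of a fly arm is gene-rich, whereas the sequence around the centromere is packed as heterochromatin, in which H3K9 is methylated in place of being acetylated. In release 5 much of that sequence is held on separate scaffolds, such as 3RHet, and base 1 of 3R is the centromere side of the assembled arm.

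Arm 3R is 27905053 bp long, which is 19.97% of the assembled sequence without the Uextra collection, and it held 24.1% of the series-wide clusters. The assembled sequence includes scaffolds with few clusters, such as 3RHet with 3.97 series-wide clusters per Mb. On 3R there were 106 per Mb, beside 111 on 2R, 103 on 3L, 99.9 on 2L and 89.5 on the X. The share of 3R was 24.2% of the clusters in replicate 1 and 24.4% in replicate 2. Clusters covered 21.8% of the arm in replicate 1 and 15.5% in replicate 2, while the series-wide list had 29.7%. The mean over the replicates was 18.6% ± 4.43 (SD, n = 2), beside 20.6% ± 4.87 on 2R, 17.2% ± 4.81 on 3L, 16.7% ± 4.68 on 2L and 14.5% ± 3.02 on the X. Since each replicate measures all arms, the arms were also compared within a replicate. Coverage of 3R minus that of the other arm was 4.09 ± 1.41 percentage points for the X, 1.89 ± 0.25 for 2L, 1.47 ± 0.384 for 3L and -1.96 ± 0.438 for 2R (SD, n = 2 each), with the same sign in both replicates for each arm. With 2 replicates no exact permutation test can reach p = 0.05, so no test was made between arms.

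H3K9ac was spread along the whole of 3R, in alternating rich and poor stretches. Among the 27 complete 1-Mb stretches, the richest in each of the 3 lists was 25000001 to 26000000, with 34.3% of its bases covered in replicate 1 and 25.9% in replicate 2, while the series-wide list had 42.2%. The stretch at 11000001 to 12000000 came next in both replicates, with 32.8% in replicate 1 and 24.5% in replicate 2. The poorest in each list was 3000001 to 4000000, with 9.41% in replicate 1 and 7.23% in replicate 2, while the series-wide list had 14.9%. It adjoins a rich stretch, 4000001 to 5000000, which had 27.3% in replicate 1 and 21.1% in replicate 2. Another poor stretch lay at 22000001 to 23000000, with 12.1% in replicate 1 and 9.47% in replicate 2.

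Replicate 1 was covered more than replicate 2 in 27 of the 27 stretches, and the 2 replicates ranked them alike. The Spearman coefficient was 0.942 across the stretches, which are neighbours on 1 chromosome and not independent samples. The 2 replicates differed most in proportion at 26000001 to 27000000. That stretch had 30.9% in replicate 1 and 16.6% in replicate 2, and so ranked 3 in replicate 1 and 10 in replicate 2. The smallest difference in proportion was at 5000001 to 6000000, with 22.6% in replicate 1 and 18.3% in replicate 2.

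**Figure D1:**
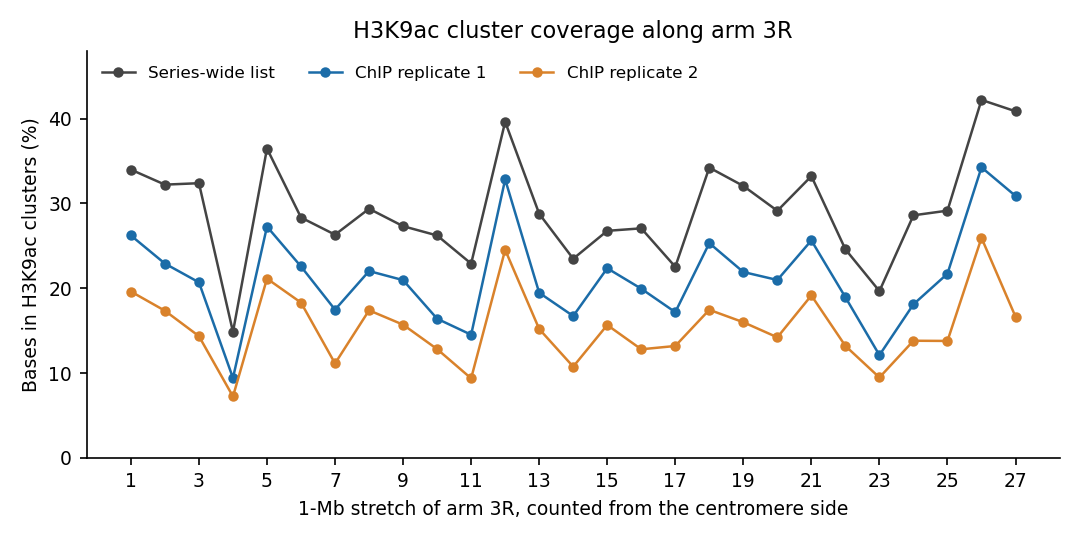
Share of bases in H3K9ac clusters (%, vertical axis) in each of the 27 complete 1-Mb stretches of arm 3R, in order from the centromere side (horizontal axis), for the series-wide list (grey), ChIP replicate 1 (blue) and ChIP replicate 2 (orange). The 3 lines share their lowest point at stretch 4 and their highest at stretch 26, and replicate 1 lies above replicate 2 throughout.

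Most 3R clusters were a few kilobases wide, with a tail of broad domains. In the series-wide list the median width was 2083 bp, with quartiles of 1403 and 3266 bp and a range from 1001 to 43329 bp. The median was 2310 bp in replicate 1 and 2203 bp in replicate 2, and the narrowest cluster of each was 1301 bp. The widths on the other arms were close to these, with series-wide medians of 2189 bp on 2R, 2079 bp on 3L, 2001 bp on 2L and 2033 bp on the X. On 3R, 103 clusters were 8 kb or wider, and they held 15.2% of the cluster bases of the arm. Replicate 1 had 56 clusters of that width on 3R and replicate 2 had 15. Wider clusters had higher scores, and the Spearman coefficient of score with width was 0.627 series-wide, 0.745 in replicate 1 and 0.735 in replicate 2, across clusters that are not independent.

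Of the 5 widest domains, 4 were broken into more clusters in replicate 2 than in replicate 1. The widest, 43.3 kb at 8062734 to 8106062, was overlapped by 3 clusters of replicate 1 and 7 of replicate 2. The next, 36.5 kb at 25077708 to 25114210, was overlapped by 2 clusters of replicate 1 and 6 of replicate 2, which covered 96.5% and 76.1% of it. It is followed after a gap of 427 bp by the fifth widest, 24.3 kb at 25114638 to 25138986, and the pair spans 61.3 kb. Replicate 1 covered 99.7% of that neighbour with 1 cluster, and replicate 2 covered 87.5% of it, also with 1. The domain at 15155162 to 15179800, 24.6 kb wide, was 1 cluster in replicate 1 and 7 in replicate 2. The domain at 14805140 to 14829520, 24.4 kb wide, was 2 clusters in replicate 1 and 6 in replicate 2. The scores of these 5 domains lay between 0.812 and 1.15, or between the 80.6 and 89.7 percentiles of the series-wide list.

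The highest scores on 3R belonged to clusters narrower than these 5 domains. Even so, 9 of the top 10 by score were wider than the arm median of 2083 bp, at 3157 to 6591 bp. The score is the authors' value for each cluster, and it is used here for ranks within a list. The top cluster, at 26032472 to 26035628, was 3157 bp wide and had a score of 2.74. It was followed by 17121462 to 17124786 with 2.36 and by 10714396 to 10717800 with 2.35. Further clusters of the top 10 lay at 25868206 to 25874378 (score 2.28), 1424050 to 1428624 (2.24), 25685714 to 25689720 (2.19) and 19179976 to 19186566 (2.16). The last were at 7038750 to 7043682 and at 17189406 to 17193008, each with a score of 2.11. Each of these 9 had 1 cluster in each replicate, which covered between 97.0% and 99.7% of it in replicate 1 and between 90.1% and 99.7% in replicate 2. The remaining cluster of the top 10, at 1275830 to 1276920, was 1091 bp wide with a score of 2.30, and neither replicate had a cluster there.

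A cluster of the series-wide list can be overlapped by both ChIP replicates, by 1 of them or by neither, and on 3R these groups differed in width and score. Both replicates overlapped 1298 of the 2964 clusters, or 43.8% (95% Wilson interval 42.0 to 45.6%), where 43.5% of the clusters of the whole list were so overlapped. The share on 3R is thus near that background. The shares were 46.6% on 2R, 42.9% on 3L, 42.4% on the X and 40.6% on 2L. Replicate 1 alone overlapped 599 clusters of 3R (20.2%), replicate 2 alone overlapped 122 (4.12%), and 945 (31.9%) had no partner in either. On the other large arms these shares ran from 18.7% to 22.4%, from 3.91% to 4.52% and from 29.3% to 34.6%, in the same order. Those of 3R lie within these ranges. All 3 lists belong to the same set of samples, so these overlaps are not independent evidence for a cluster.

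Clusters found in both replicates made up most of the covered sequence. They held 65.7% of the cluster bases of 3R, while those in neither replicate held 15.6%. At the median they were 3289 bp wide, with quartiles of 2437 and 4799 bp, and their median score percentile was 77.6. Clusters of replicate 1 alone had a median width of 1883 bp and those of replicate 2 alone 1703 bp, and clusters in neither had 1257 bp. The median score percentile of these 3 groups was 27.8, 27.6 and 27.8, so that they differed in width and hardly in score.

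**Figure D2:**
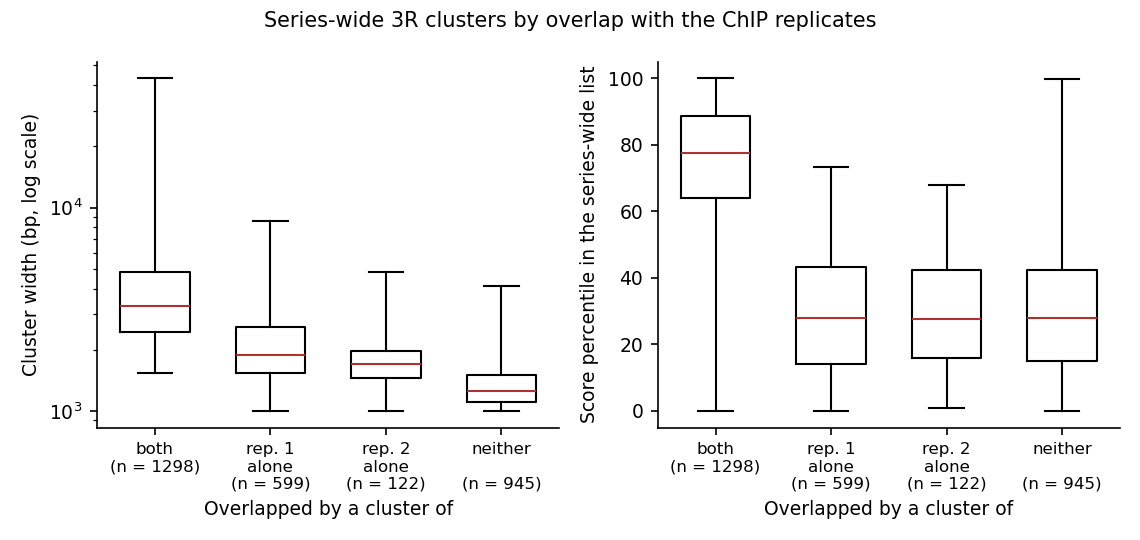
Width in bp (left, log scale) and score percentile in the series-wide list (right) of the series-wide clusters of 3R, grouped by whether a cluster of both, 1 or neither ChIP replicate overlaps them. Boxes span the quartiles, red lines are medians and whiskers reach the lowest and highest value. The 1298 clusters found in both replicates have a higher median than the other 3 groups on each axis, though the ranges overlap. Their median width is 3289 bp, while clusters in neither have 1257 bp.

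Recurrence went with width. Overlap was counted from 1 bp, which favours wider clusters by construction. Of the 103 clusters of 8 kb or wider, 100 were found in both replicates, or 97.1%, and 0 lacked a partner in both. The other 3 had a partner in replicate 1 alone. The share in both was 91.4% for widths from 4 kb to under 8 kb and 72.1% from 2 kb to under 4 kb. It was 10.3% for 812 clusters from 1301 bp to under 2 kb. The 602 clusters under 1301 bp are narrower than any cluster of the replicates. Of them 0 were found in both (upper Wilson limit 0.634%) and 534 were found in neither. That limit treats neighbouring clusters as independent.

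Recurrence also went with score. The series-wide list was divided by score percentile into 4 groups, from group 1 with the lowest scores to group 4 with the highest. Of the 732 clusters of 3R in group 4, 725 were found in both replicates, or 99.0% (95% Wilson interval 98.0 to 99.5%). The share was 63.1% in group 3, 13.8% in group 2 and 9.29% in group 1. Clusters without a partner in either replicate made up 51.5% of group 1 and 0.956% of group 4. The median width rose from 1529 bp in group 1 to 3436 bp in group 4, so the trends with width and score are not separate. The score comes from a list of the same set of samples as the replicates, so recurrence with score is not independent evidence. Whole-list shares by width and score are not given here, so these trends do not set 3R apart.

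Set against each other, the ChIP replicates shared most of their stronger 3R clusters. In replicate 2, 1499 of the 1652 arm clusters had a partner in replicate 1, a share of 90.7%, beside 90.5% over its whole list. In replicate 1, 1381 of 2054 had a partner in replicate 2, a share of 67.2%, beside 66.8% over its whole list. Both shares are near their background. The 673 unpaired clusters of replicate 1 were narrower, at a median of 1632 bp against 2860 bp for the paired, and ranked lower, at a median percentile of 22.8 against 66.5. The 153 unpaired clusters of replicate 2 measured 1463 bp at the median, against 2315 bp for the paired. Their median percentile was 34.8 against 50.5, a smaller contrast than in replicate 1.

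Shared clusters were placed alike. The replicates covered 3.91 Mb of 3R in common, which is 64.5% of the cluster bases of replicate 1, 90.5% of those of replicate 2 and 60.4% of their union. In 1209 pairs, each cluster overlapped just the other. Their starts differed by a median of 117 bp and their ends by 122 bp, and both ends lay within 100 bp in 281 pairs, or 23.2%. Replicate 1 had the wider cluster in 937 pairs, or 77.5%, and the median widths were 2734 bp in replicate 1 and 2334 bp in replicate 2. The score percentiles of the pairs had a Spearman coefficient of 0.863, across clusters that share their libraries. Of the 1298 series-wide clusters found in both, 1092, or 84.1%, matched 1 cluster of each, while 128 joined several clusters of replicate 1 and 153 several of replicate 2.

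Clusters held by 1 replicate seldom ranked near the top of its list. In replicate 1 the highest of these were at 24385201 to 24388743 with a score of 0.895, at 25981177 to 25985413 with 0.838 and at 15819290 to 15824788 with 0.835. They ranked between the 66.1 and 69.7 percentiles of the replicate 1 list. In replicate 2 they were at 11238749 to 11240163 with a score of 1.504, at 22410398 to 22412020 with 1.09 (74.1 percentile) and at 1191118 to 1192480 with 1.07 (73.3 percentile). The first of these, 1415 bp wide and at the 90.9 percentile of its list, was absent from the series-wide list, which held the other 5.

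Neighbouring clusters on 3R were often close. In the series-wide list the median gap was 2503 bp, with quartiles of 783 and 7379 bp. It was 3917 bp in replicate 1 and 5026 bp in replicate 2, the lists with fewer clusters. Gaps of up to 1 kb made up 29.7% of the 2961 series-wide gaps, 21.7% of those in replicate 1 and 16.9% of those in replicate 2. When series-wide clusters up to 1 kb apart were joined, 1441 clusters, or 48.6%, fell into 560 runs, and 1523 stood alone. The run with the most clusters held 8, over 49.6 kb at 25356074 to 25405720. The widest joined unit held 4 clusters over 70.4 kb at 8050960 to 8121382, and the widest domain of the arm is 1 of them.

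The part of the arm taken up by long gaps differed between the lists. In the series-wide list, 45 gaps of 50 kb or more added up to 3.38 Mb, or 12.1% of the arm. In replicate 1 there were 86 such gaps with 27.7% of the arm and in replicate 2 there were 110 with 37.4%. Of the sequence outside clusters, such gaps held 17.2% in the series-wide list, 35.4% for replicate 1 and 44.3% for replicate 2. The longest of the series-wide list, 204 kb at 8582387 to 8786853, held 0 clusters in each replicate too. The next was 146 kb at 14585395 to 14731503, where 0 clusters of either replicate lay inside. The gap at 16240483 to 16366197, of 126 kb, held 1 cluster of replicate 2, with a score at the 44.2 percentile. Those at 10730679 to 10849771, of 119 kb, and at 6784737 to 6896677, of 112 kb, were clear of both replicates.

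**Figure D3:**
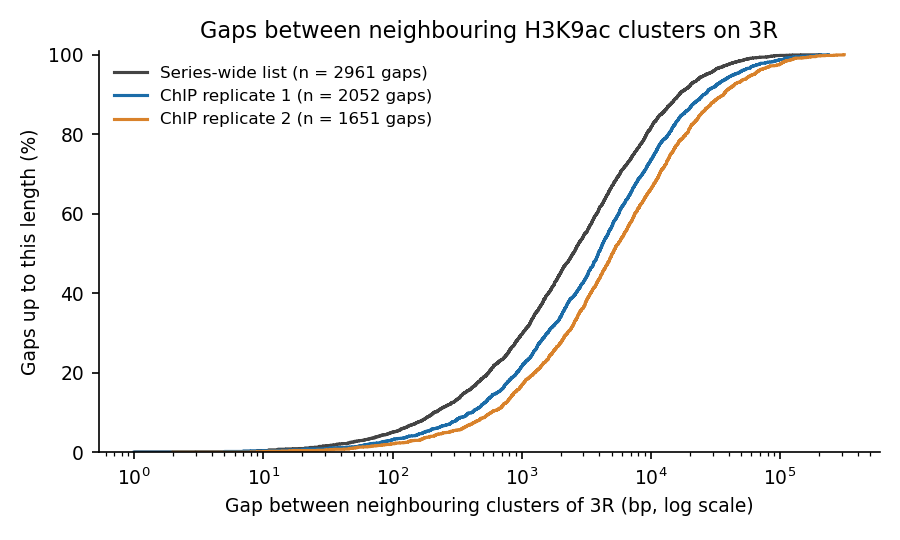
Cumulative share of gaps (%, vertical axis) up to a given length (bp, log scale, horizontal axis) between neighbouring H3K9ac clusters of 3R, for the series-wide list (grey, 2961 gaps), ChIP replicate 1 (blue, 2052) and ChIP replicate 2 (orange, 1651). The curves cross the 50% level at 2503, 3917 and 5026 bp.

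The longest gaps of the replicates were filled in part by the other lists. The longest of replicate 2, 314 kb at 6719897 to 7033845, held 5 clusters of replicate 1 and 6 of the series-wide list, of which the highest was at the 66.3 percentile. That of 274 kb at 3362232 to 3636013 held 2 clusters of replicate 1 and 10 of the series-wide list. It lies within the poorest 1-Mb stretch of the arm. The longest gap of replicate 1, 237 kb at 8569195 to 8805937, held 0 clusters of replicate 2 and 2 of the series-wide list.

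Cut into 100-kb stretches, the arm gave 279 complete ones. The median coverage was 27.4% in the series-wide list, with quartiles of 16.5% and 41.2%. It was 20.02% in replicate 1 and 14.3% in replicate 2. Coverage was higher in replicate 1 in 245 stretches and in replicate 2 in 23, with 11 equal. The Spearman coefficient between the replicates was 0.942 over these neighbouring stretches.

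Dense stretches, taken as those with at least 50% of their bases covered in the series-wide list, numbered 38, or 13.6%, and held 27.4% of the covered bases. The stretch just inside the limit had 50.3% and the one just outside it 49.8%. The share of dense stretches was 14.7% on 2R, 11.3% on 2L, 10.6% on 3L and 7.14% on the X. Dense stretches of 3R touched a median of 17 clusters and the others 10. Coverage in them ran from 26.96% to 70.6% in replicate 1, with a median of 44.4% against 17.6% in the other stretches. In replicate 2 it ran from 18.8% to 54.5%, with a median of 29.6% against 12.2%. The replicates belong to the same set of samples as the series-wide list, so choosing by that list favours higher values in dense stretches. With the same limit applied to each replicate, 11 stretches were dense in replicate 1 and 1 in replicate 2, at 11100001 to 11200000, where coverage was 58.9% in replicate 1 and 54.5% in replicate 2.

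The 5 densest stretches differed in how far the replicates shared their coverage. At 27300001 to 27400000, close to the far end of the arm, the series-wide list covered 77.99%, replicate 1 covered 70.6% and replicate 2 covered 22.9%. This was the largest difference between the replicates among the 279 stretches. At 26500001 to 26600000 the values were 77.5%, 61.03% and 27.5% in the same order. At 11400001 to 11500000 they were 76.6%, 67.97% and 47.5%. At 25300001 to 25400000 they were 75.99%, 55.02% and 38.8%, and at 15100001 to 15200000 they were 75.8%, 68.9% and 35.3%. Dense stretches adjoined each other in 8 pairs, among them 8000001 to 8200000, 11300001 to 11500000 and 26500001 to 26700000.

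**Figure D4:**
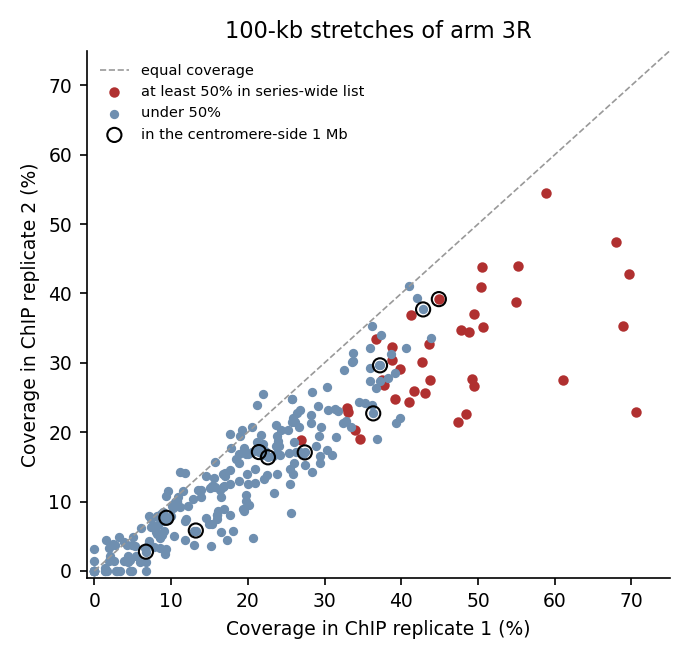
Coverage by H3K9ac clusters in ChIP replicate 1 (%, horizontal axis) and ChIP replicate 2 (%, vertical axis) for the 279 complete 100-kb stretches of 3R. Red points are the 38 stretches with at least 50% covered in the series-wide list, blue points the others, and black rings mark the 10 stretches of the centromere-side 1 Mb. Most points lie under the dashed line of equal coverage, and the rings spread from the low to the high part of the cloud.

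Empty stretches were few. In the series-wide list 2 of the 279 held no covered base, at 8600001 to 8700000 and at 14600001 to 14700000, and both were empty in each replicate. The count of such stretches in the series-wide list was 2 of 230 on 2L, 3 of 211 on 2R, 7 of 245 on 3L and 8 of 224 on the X. On 3R, 13 stretches were empty in replicate 1 and 20 in replicate 2, and 11 were empty in both. These 11 are 3.94% of the stretches, beside 1.42% on 2R, 4.90% on 3L, 5.65% on 2L and 6.70% on the X, so that 2R had the lowest share by this measure and 3R the lowest in the series-wide list. In 9 of the 11 on 3R the series-wide list still held clusters, covering at most 6.09% of a stretch.

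The stretches that were empty in both replicates gathered in the middle of the arm. Of the 11, 10 lay between 8600001 and 16000000, a region of 74 stretches, and 1 lay among the other 205, at 22100001 to 22200000. The bounds of that region were drawn from the empty stretches themselves, so the count is a description. Overall coverage there was 19.7% against 22.5% elsewhere in replicate 1, and 13.97% against 16.1% in replicate 2. The same region held 9 of the 38 dense stretches, among them 14800001 to 15000000, which lies 100 kb beyond an empty one.

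On the centromere side, the 1 Mb of 3R from base 1 was covered more than the rest of the arm in each list. This stretch was singled out as a well-covered end, so its higher coverage is a description and not a test. It had 26.2% covered in replicate 1 and 19.6% in replicate 2, while the series-wide list had 33.99%, against 21.6%, 15.3% and 29.6% in the rest of the arm. The mean of the replicates was 22.9% ± 4.67 against 18.5% ± 4.42 in the rest (SD, n = 2 each). Within a replicate the difference was 4.62 percentage points in replicate 1 and 4.26 in replicate 2, a mean of 4.44 ± 0.253 (SD, n = 2). Divided by the rest, this gave a ratio of 1.21 in replicate 1 and 1.28 in replicate 2, with a mean of 1.25 ± 0.0451 (SD, n = 2), and 1.15 in the series-wide list. Of the 27 stretches of 1 Mb, it ranked 5 in replicate 1 and 4 in replicate 2, while the series-wide list had 6. It thus lay in the upper part of the range along the arm in each list and was not its highest stretch. The centromere-side 1 Mb of the other large arms had ratios of 0.448 ± 0.0178 on the X, 0.302 ± 0.0306 on 2L, 0.181 ± 0.0546 on 2R and 0.0669 ± 0.0272 on 3L (SD, n = 2). The stretch of 3R was singled out as well covered and those of the other arms were not, so these ratios are a description. Their SD measures the spread between replicates and not between arms. How far the assembled end of each arm lies from its centromere is not given in the sources used here, and a difference in that distance cannot be told apart from a difference in the mark.

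Coverage on this side of 3R began at once and did not build up with distance. The series-wide list has its first cluster at 6 to 3568, with a score of 0.883, and both replicates have a cluster there, with scores of 1.22 in replicate 1 and 0.979 in replicate 2. The next cluster, at 4960 to 6968, was found in replicate 1 alone. Over the 10 stretches of 100 kb, coverage ran from 6.73% to 44.9% in replicate 1 and from 2.77% to 39.2% in replicate 2. The lowest was 800001 to 900000 and the highest 600001 to 700000 in both. Of the 10, 0 were empty in either replicate. On 3L, 6 of the 10 stretches nearest the centromere side were empty in both replicates, and the highest had 4.32% in replicate 1 and 6.28% in replicate 2. The X had 3 such empty stretches, and 2L and 2R had 2 each.

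**Figure D5:**
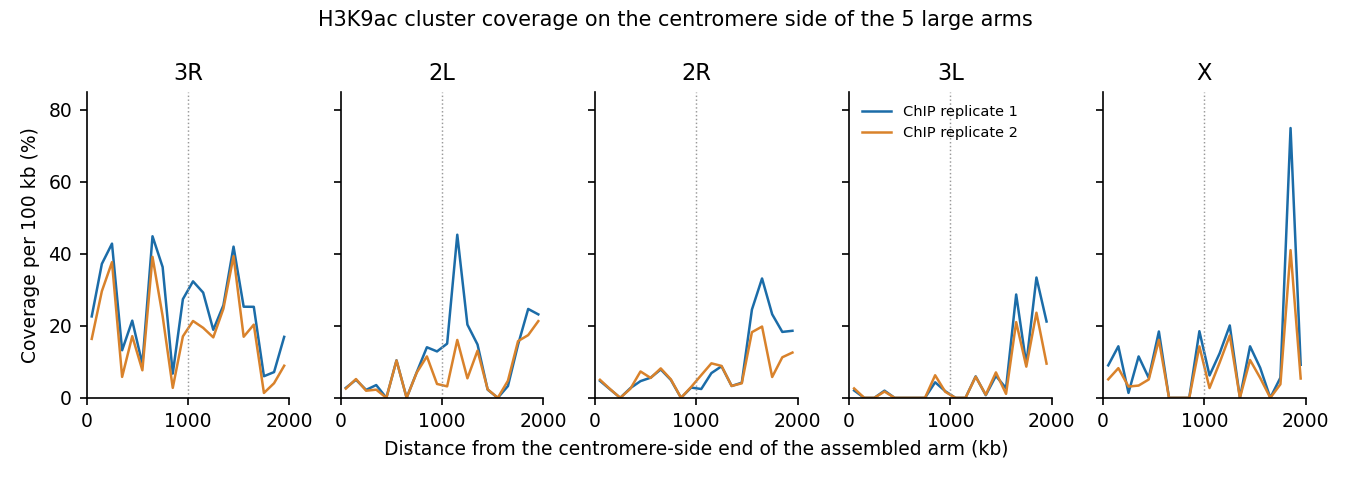
Coverage by H3K9ac clusters in successive 100-kb stretches (%, vertical axis) against distance from the centromere-side end of the assembled arm (kb, horizontal axis), for 3R and the other 4 large arms, in ChIP replicate 1 (blue) and ChIP replicate 2 (orange). Dotted lines mark 1 Mb. On 3R coverage reaches 44.9% in replicate 1 before the dotted line, while on 3L, over the same distance, it stays at or under 6.28% in both replicates.

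The 124 series-wide clusters that start at or before base 1000000 were close in median width to those of the rest of the arm. Their median width was 2020 bp against 2083 bp in the rest, their median score percentile was 41.7 against 45.8, and the median gap between them was 3043 bp against 2467 bp. Both replicates overlapped 61 of them, or 49.2% (95% Wilson interval 40.6 to 57.9%), against 43.6% (41.7 to 45.4%) of the 2840 others. Neither replicate overlapped 31 of them (18.2 to 33.3% by the same interval), against 914 of the others (30.5 to 33.9%). The intervals treat neighbouring clusters as independent, so they do not test whether this stretch differs from the rest. Replicate 1 had 91 clusters in this stretch and replicate 2 had 77. The last cluster inside the limit is at 966718 to 967954 and the first outside it at 1010942 to 1012424, and neither replicate has a partner for them. Between them lies the longest gap that begins in this stretch, 42.99 kb.

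The strongest clusters of the centromere side lay away from its tip. The highest score was 1.83, at 464732 to 469254, with 1.78 in replicate 1 and 2.02 in replicate 2. It was followed by 258036 to 264856 with 1.63, 538308 to 540824 with 1.60, 45858 to 48530 with 1.47 and 776398 to 779248 with 1.45. Each of these 5 had 1 cluster in each replicate, which covered at least 94.7% of it. The widest were 2 neighbours with 513 bp between them, 12.1 kb at 665322 to 677452 and 17.3 kb at 677966 to 695228, which span 29.9 kb. Replicate 1 covered 94.3% and 98.2% of them, and replicate 2 covered 79.5% and 86.98%. Further wide clusters lay at 698652 to 709050, 739036 to 749668 and 114832 to 122142. The first of these was covered to 67.2% by replicate 1 and to 32.5% by replicate 2.

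The heterochromatic scaffold 3RHet, 2517507 bp long, carried far fewer clusters. The series-wide list had 10 there, replicate 1 had 7 and replicate 2 had 6, and they covered 0.814%, 0.586% and 0.52% of it. Of the 10, both replicates overlapped 5. The highest was at 1822410 to 1824856 of the scaffold, with a series-wide score of 1.76 and scores of 1.72 in replicate 1 and 1.84 in replicate 2, which placed it at the 98.5 percentile of the series-wide list.

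At the far end, the last 1 Mb of 3R had 29.1% covered in replicate 1 and 16.6% in replicate 2. Its ratio to the rest of the arm was 1.35 in replicate 1 and 1.07 in replicate 2. Those of the centromere side, 1.21 and 1.28, were more alike. The mean far-end ratio of 3R was 1.21 ± 0.199, beside 1.76 ± 0.0719 on 2L, 1.75 ± 0.157 on the X, 1.65 ± 0.13 on 3L and 1.58 ± 0.0935 on 2R (SD, n = 2 each). The last cluster, at 27891408 to 27894822, ended 10231 bp before the end of the assembled arm and was found in both replicates.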

How the data were processed

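Chromatin of formaldehyde-fixed embryos was precipitated with antibody and protein A beads, per the labels' protocols. The deposited files are lists of enriched regions with release 5 coordinates and, per the file headers, 1 score a region. The sources used here do not give the aligner, the caller and its threshold, how replicates were combined, or what the score is relative to. Read depth is unknown, and intervals cover counting error alone. Whether replicates came from separate collections is not stated, so their spread may be technical.

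Covered bases were counted after merging clusters. Overlap means 1 bp or more. Annotation for release 5 was not used here, so regions are named by position: the 10 highest-scoring and 5 widest clusters, the 5 densest and all empty 100-kb stretches, the 5 longest gaps, the same kinds in the first 1 Mb, and the 3 highest of each replicate alone. Longest gaps of the replicates, runs, the middle of the arm and 3RHet were added after values were seen. Members and lists were chosen with earlier results of these data known. The code was checked on simulated data. Alternatives were another overlap, a score limit, shifted stretches, other window sizes, joined clusters and single replicates. Plots were drawn with matplotlib 3.10.9, and values computed with pandas 2.3.3, numpy 2.4.6 and scipy 1.17.1 under Python 3.11.15.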

Additional observations from a re-analysis of the deposited data

How the results depend on the processing

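Most counts and medians here changed with the list and the setting used. The ratio of the centromere side to the rest of 3R stayed above 1 under each alternative run. The stretch was singled out as well covered, so a ratio above 1 is not independent support. That ratio was 1.33 for the first 500 kb, 1.17 for the first 2 Mb, 1.19 when clusters under the median score were dropped, and 1.15 in the series-wide list, in place of 1.25, and 1.28 by clusters per megabase. It ranged from 1.21 to 1.28 with 1 replicate left out. Overlap by both replicates was 38.1% with a 50% overlap and 82.2% for clusters at or above the median score, and 54.95% for clusters at least as wide as the narrowest replicate cluster, an alternative chosen after seeing the data. With 1 replicate left out, the other overlapped 47.9% to 64.0%. Coverage was 11.8% with the score limit and 29.7% in the series-wide list, and 15.5% to 21.8% without a replicate. The median width was 3197 bp with the score limit and 2203 to 2310 bp in single replicates. The median gap was 3682 bp after joining clusters up to 500 bp apart and 3917 to 5026 bp in single replicates. Empty stretches numbered 21 with the score limit, 2 when shifted by 50 kb, and 13 to 20 in single replicates. Dense stretches numbered 12 at a limit of 60%, 30 when shifted, and 1 to 11 in single replicates. Fewer clusters leave fewer covered bases by construction, and other causes were not tested. No paired analysis was possible because the groups that share replicate numbers are ChIP and input, and values of inputs were not used. Comparisons of stretches and arms are given within each replicate in the report.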

Other observations

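Strong 3R clusters without a partner in either replicate were few and narrow. Of the 296 clusters of 3R above the 90 percentile of the series-wide scores, 291 were found in both replicates and 5 in neither. The matching share over the whole list is not given here, so these counts do not set 3R apart. The 5 in neither, chosen after their values were seen, were 1001 to 1867 bp wide. Besides the one in the top 10, they lay at 4435682 to 4436682 with a score of 2.05, at 16095682 to 16097548 with 1.37, at 23898324 to 23899538 with 1.28 and at 8325524 to 8326678 with 1.22.

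Many scores recurred exactly. To 9 decimals, 936 of the 2964 series-wide clusters of 3R, or 31.6%, had the same score as another cluster of the list, against 31.9% over the whole list. Their median width was 1385 bp, against 2570 bp for the others. The strongest unmatched cluster, at 1275830 to 1276920, shared its score of 2.30 with a cluster of 2R at 2243652 to 2244652. In the replicates, 28.7% of the 3R clusters of replicate 1 and 35.4% of those of replicate 2 had a recurring score. Every start and end was an even number in the series-wide list, on 3R and on the other large arms alike (100% of each). On 3R, 50.8% of starts were even in replicate 1 and 49.1% in replicate 2.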
